A study of Homo sapiens with 6 samples.

Results

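The genes that make cholesterol and fatty acids were examined in A549 cells, an established human lung adenocarcinoma line, after silencing of the long noncoding RNA FAM83H-AS1. The set held 40 genes picked by name for their roles in lipid synthesis, out of 40173 genes in the count table, by a rule that uses no measured value, although the set was put together with earlier results of these data known. All 40 genes passed the filter on low counts that left 15250 genes for testing. Cells received either an siRNA directed at FAM83H-AS1 (silenced) or a scrambled siRNA as negative control (control), and total RNA was harvested 24 h after transfection and sequenced on an Ion Proton instrument. Each group had 3 libraries, of 9738291 to 17742643 counts. The labels do not say whether the libraries of a group came from separate cultures, so the p-values measure the spread between these libraries, which may be technical. Nor do they say which siRNA against FAM83H-AS1 was used. Other effects of the siRNA cannot be told apart here from loss of its target.

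Cells build cholesterol from acetyl-CoA through mevalonate and the isoprenoid chain to squalene, which is closed into a ring and trimmed to cholesterol by the sterol enzymes. Fatty acids come from the same acetyl-CoA through malonyl-CoA and are then lengthened and desaturated. Both routes are switched on by the SREBP transcription factors, which the escort protein SCAP carries out of the endoplasmic reticulum when sterols are scarce and which INSIG proteins hold back when sterols are plentiful.

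The promoters of 5 genes are shown as picked examples, which do not stand for the members that fell. MVK, NSDHL and FDPS fell after silencing and were chosen for their several CCAAT boxes, the word bound by NF-Y, a factor known to act beside SREBP. IDI1, CYP51A1, SREBF1, ACACA and FADS2 also fell but hold no CCAAT in the stretch searched, and they are not shown. For IDI1, on the minus strand, this stretch is chr10:1056655-1056954, outside the GENCODE gene model, which ends at 1049170. For FADS2, on the plus strand, it is chr11:61815953-61816252, inside the gene model, which starts at 61792980. Other starts of these genes were not searched, so CCAAT may be present there. SREBF2 holds the sterol regulatory element word, and INSIG2, the member that rose, holds neither. Each sequence runs from 250 bases before to 50 bases after the RefSeq start on GRCh38.p14, all on the plus strand, at chr12:109573544-109573843 for MVK, chrX:152830813-152831112 for NSDHL, chr1:155308616-155308915 for FDPS, chr22:41832855-41833154 for SREBF2 and chr2:118088221-118088520 for INSIG2. Capitals mark CCAAT in either orientation and TCACNCCAC, the sterol regulatory element form that was searched.
MVK: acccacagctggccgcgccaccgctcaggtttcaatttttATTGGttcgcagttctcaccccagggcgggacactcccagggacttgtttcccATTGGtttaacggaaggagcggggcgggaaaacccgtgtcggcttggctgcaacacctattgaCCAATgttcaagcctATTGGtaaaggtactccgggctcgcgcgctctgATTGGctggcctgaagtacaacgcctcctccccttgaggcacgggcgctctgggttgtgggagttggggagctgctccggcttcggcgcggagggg
NSDHL: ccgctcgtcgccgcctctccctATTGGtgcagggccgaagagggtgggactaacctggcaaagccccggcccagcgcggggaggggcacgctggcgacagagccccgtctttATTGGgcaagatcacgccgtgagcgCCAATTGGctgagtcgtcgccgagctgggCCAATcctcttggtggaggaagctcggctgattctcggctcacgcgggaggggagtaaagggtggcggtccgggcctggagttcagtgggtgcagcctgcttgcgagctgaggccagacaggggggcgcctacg
FDPS: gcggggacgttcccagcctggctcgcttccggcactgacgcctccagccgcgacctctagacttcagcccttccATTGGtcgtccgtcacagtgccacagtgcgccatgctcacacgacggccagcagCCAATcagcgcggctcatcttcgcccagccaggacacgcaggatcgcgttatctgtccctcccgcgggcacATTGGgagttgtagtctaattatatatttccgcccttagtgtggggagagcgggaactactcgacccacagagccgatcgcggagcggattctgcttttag
SREBF2: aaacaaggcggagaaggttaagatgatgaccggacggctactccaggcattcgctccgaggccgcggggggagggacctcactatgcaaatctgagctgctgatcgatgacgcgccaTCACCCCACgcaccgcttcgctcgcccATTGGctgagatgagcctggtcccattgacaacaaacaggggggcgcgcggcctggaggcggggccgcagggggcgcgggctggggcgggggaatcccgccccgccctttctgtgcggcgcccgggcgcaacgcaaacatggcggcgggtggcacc
INSIG2: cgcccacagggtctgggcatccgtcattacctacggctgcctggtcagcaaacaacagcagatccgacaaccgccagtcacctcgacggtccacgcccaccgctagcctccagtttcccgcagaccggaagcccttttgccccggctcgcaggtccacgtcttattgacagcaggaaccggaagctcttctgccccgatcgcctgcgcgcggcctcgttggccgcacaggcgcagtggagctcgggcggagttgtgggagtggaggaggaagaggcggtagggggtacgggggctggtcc

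RefSeq promoters were matched for 35 of the 40 members, all but ACAT2, FDFT1, SQLE, ABCG1 and FASN. CCAAT, read on both strands, occurred in 20 of the 35 (57.1%), against 35.7% of all 27305 promoters of the same length and 36.9% of the promoters of tested genes. Among the sterol enzymes 8 of 9 promoters held it, against 2 of 7 among the SREBP regulators. It was present in 6 of the 11 matched members that fell and in 14 of the 23 that were not called. MVK and NSDHL held it most often, with 5 occurrences each, and in NSDHL a forward and a reverse copy share bases. GGGCGG, the GC box, was found in 30 of 35 members (85.7%) against 70.7% of tested promoters, and CACGTG, an E-box, in 5 (14.3%) against 10.2%. TCACNCCAC was found in 1 member, SREBF2, where it read TCACCCCAC from base -133 relative to the start, against 1.15% of all promoters. The windows of some members, IDI1, DHCR7, ACSS2, ACLY, FADS1 and FADS2 among them, lie away from the outermost start of the GENCODE gene model. The counts hold for the RefSeq windows only. These matches describe the letters in the window and no binding was measured.

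FAM83H-AS1 itself had 141, 185 and 292 counts after control transfection and 47, 48 and 75 counts after silencing. Its level fell from 15.9 ± 1.38 to 4.86 ± 0.616 CPM (SD, n = 3 per group), where CPM is the count scaled to a common library size with TMM factors, and the groups did not overlap (log2 fold change -1.70, SE 0.148, edgeR adjusted p = 7.99e-05).

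After silencing, 14 of the 40 members fell and 1 rose at an adjusted p under 0.05 in edgeR's quasi-likelihood test, with Benjamini-Hochberg adjustment over all 15250 genes. Over all tested genes 17.0% were called by the same rule, 8.27% lower and 8.75% higher, so the share of members that fell (35%) was above the background and the share that rose (2.5%) was below it. Of the 40, 30 had a log2 fold change under 0, of which GGPS1, TM7SF2, MBTPS2 and MYLIP turned above 0 under at least 1 alternative, and the median of the 40 was -0.19, beside -0.00067 over all genes. The changes were modest, since 0 members passed a fold change of 2 together with the adjusted p in edgeR or DESeq2, a rule passed by 2.14% of tested genes in edgeR, and 0 did so at an unadjusted p under 0.05. In 20 members every silenced library lay under every control library (17.5% of all genes did so), and in 4 members every silenced library lay above (19.1% of all genes). The smallest two-sided p that exact permutation of 3 against 3 libraries allows is 0.1, so the calls rest on the model fitted across all genes. In bulk RNA, fewer cells with a transcript and less of it in each cell cannot be told apart. One library weighed on the count: without silenced replicate 1, 8 members were lower, where 3.80% of all genes were.

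The changes were unequal between roles, although the difference between role groups was not tested. The 27 enzymes of synthesis held 13 of the 14 genes that fell and had a median log2 fold change of -0.30. The 13 regulators and transport genes held 1 that fell and 1 that rose (7.69% each, near the shares over all tested genes), with a median of 0.0030. The median over the members, taken per library as log2 of the level over the control mean, was 0.03, -0.03 and 0.02 for the controls and -0.19, -0.15 and -0.19 for the silenced cells. The library medians of the sterol enzymes were 0.11, -0.03 and -0.03 for the controls, with control replicate 1 above the others, and -0.39, -0.28 and -0.33 for the silenced cells.

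**Figure D1:**
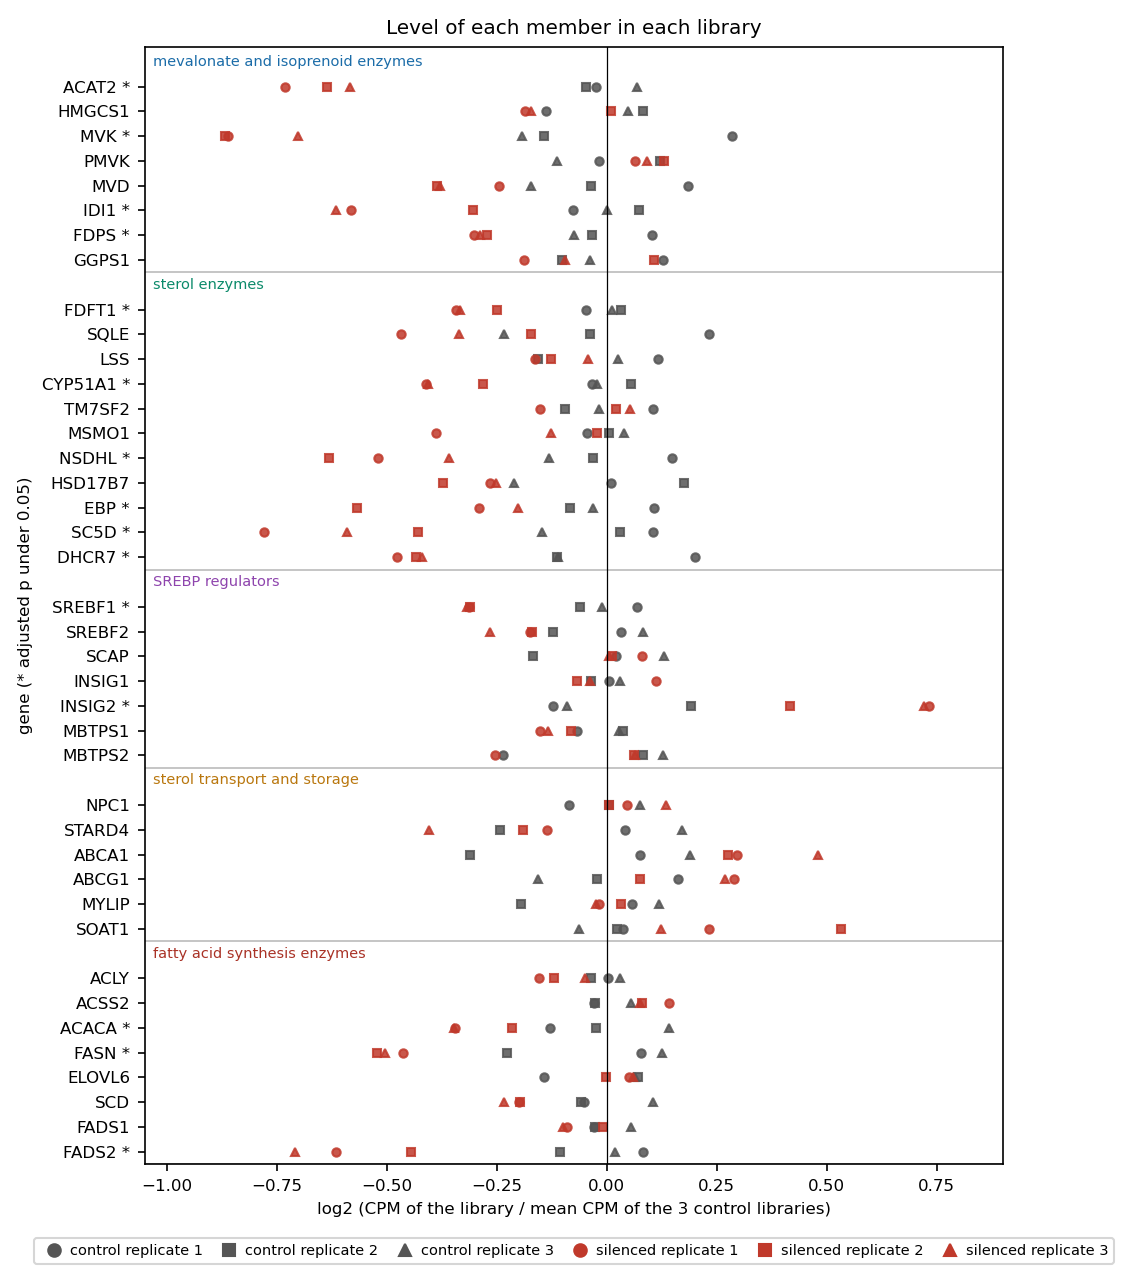
Level of each of the 40 members in each of the 6 libraries, as log2 of CPM over the mean CPM of the control libraries (x axis), with genes grouped by role (y axis) and an asterisk for an adjusted p under 0.05. Grey symbols are control and red symbols are silenced libraries; most red symbols of the enzyme groups sit left of 0, while INSIG2 has the symbols farthest to the right.

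The first group, the mevalonate and isoprenoid enzymes, had 4 of 8 genes lower and 0 higher in edgeR (4 and 0 in DESeq2, and 5 and 0 at an unadjusted edgeR p under 0.05), with a median log2 fold change of -0.31. Here and below, the share of all tested genes past the unadjusted p was not counted. Counts by that rule are therefore not to be read against the shares at an adjusted p. ACAT2, which joins acetyl-CoA units at the entry to the pathway, was at 60.7, 59.7 and 64.8 CPM in control and 37.2, 39.8 and 41.2 CPM in silenced libraries. The groups stood well apart and the mean fell to 63.8% of control (log2 fold change -0.65, SE 0.0784, edgeR adjusted p = 0.000567). MVK, mevalonate kinase, had the deepest fall of all members, from 34.1, 25.3 and 24.5 CPM in control to 15.4, 15.3 and 17.2 CPM in silenced libraries. Its control replicate 1 was the highest of the 6, and the mean went from 28.0 ± 5.30 to 16.0 ± 1.07 CPM (log2 fold change -0.80, SE 0.135, edgeR adjusted p = 0.00350). Without that library the log2 fold change of MVK was -0.64 and stayed past the threshold. IDI1, the isomerase that makes the active isoprenoid unit, was at 45.1, 50.1 and 47.7 CPM in control and 31.9, 38.6 and 31.1 CPM in silenced libraries. Silenced replicate 2 was the highest of its group and still below all controls (log2 fold change -0.50, SE 0.0977, edgeR adjusted p = 0.00719). FDPS, which joins these units to farnesyl diphosphate, had the highest level per kilobase of exon in the group, 50.4 CPM per kilobase in the controls. It was at 201, 183 and 178 CPM in control and 152, 155 and 153 CPM in silenced libraries, a small and even decline (log2 fold change -0.29, SE 0.0717, edgeR adjusted p = 0.0209). The call for FDPS was lost without control replicate 1, silenced replicate 1 or silenced replicate 3, with adjusted p from 0.00583 to 0.0894 over the alternatives.

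The other 4 genes of this group did not pass the test. HMGCS1, HMG-CoA synthase, is commonly read as an SREBP target, and its groups overlapped at 135, 157 and 154 CPM and 131, 149.7 and 132 CPM, with a 95% interval of the log2 fold change of -0.30 to 0.07. MVD, mevalonate diphosphate decarboxylase, did not overlap between groups and had a log2 fold change of -0.33 (edgeR adjusted p = 0.0603). PMVK, phosphomevalonate kinase, had a log2 fold change of 0.10 (interval -0.08 to 0.28). GGPS1, which makes geranylgeranyl diphosphate, had -0.05 (interval -0.28 to 0.18). The enzymes that fell were thus spread along the route, from its entry to farnesyl diphosphate, with genes between them that were not called.

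Some of these genes share exon sequence with neighbours in GENCODE 29, and whether the counting used strand is not given in the sources used here. MVK shares 306 exon bases, 4.72% of its exon length, with MMAB on the opposite strand, and reads in the shared bases cannot be told apart. MMAB, an enzyme of cobalamin metabolism, had a log2 fold change of -0.79 (SE 0.107, edgeR adjusted p = 0.00102). ACAT2 shares 26.5% of its exon length with SOD2 on the opposite strand, whose log2 fold change was 0.37 (edgeR adjusted p = 0.0232), opposite in direction. GGPS1 shares 37.3% of its exon length with TBCE on the same strand. FDPS has 8 named pseudogenes, and reads could be split among them.

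All 11 sterol enzymes had a log2 fold change under 0, apart from TM7SF2 when libraries were scaled by size only (0.018) or when control replicate 1 (0.032) or silenced replicate 1 (0.040) was left out, and their median was -0.31. Of these 6 fell and 0 rose in edgeR, as in DESeq2, and at an unadjusted edgeR p under 0.05 the counts were 8 and 0. FDFT1, squalene synthase, which commits the chain to sterols, was at 224, 237 and 233 CPM in control and 183, 195 and 184 CPM in silenced libraries, with no overlap (log2 fold change -0.31, SE 0.0668, edgeR adjusted p = 0.0111). CYP51A1, the lanosterol demethylase, was at 81.6, 86.8 and 82.2 CPM in control and 62.9, 68.8 and 63.1 CPM in silenced libraries, again with every silenced library lower (log2 fold change -0.36, SE 0.0751, edgeR adjusted p = 0.00900). Both calls were lost when silenced replicate 1 was left out, where the adjusted p was 0.0655 for FDFT1 and 0.0506 for CYP51A1, the highest over their alternatives (lowest 0.000893 and 0.000856). CYP51A1 shares 79.4% of its exon length with the protein-coding gene model AC000120.2 on the same strand, which was not among the tested genes. CYP51A1 also has 3 named pseudogenes, so its values are uncertain to an extent that is not known.

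NSDHL, which removes carbon from the sterol ring together with MSMO1, was at 62.9, 55.5 and 51.8 CPM in control and 39.6, 36.6 and 44.3 CPM in silenced libraries. The nearest libraries of the groups, control replicate 3 and silenced replicate 3, were still apart (log2 fold change -0.49, SE 0.0990, edgeR adjusted p = 0.00804). EBP, the sterol isomerase, had the highest level per kilobase among the sterol enzymes, 112 CPM per kilobase. Its CPM was 292, 255 and 265 in control and 221, 182 and 235 in silenced libraries, where replicate 2 was the lowest (log2 fold change -0.34, SE 0.0965, edgeR adjusted p = 0.0329). This call was lost most often, without any 1 of control replicates 1, 2 and 3 or silenced replicates 1 and 2, with log2 fold changes from -0.42 to -0.24 and adjusted p up to 0.0981.

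SC5D and DHCR7 act at the end of the route, where the last double bonds of cholesterol are set. SC5D, the sterol desaturase, was at 26.1, 24.7 and 21.9 CPM in control and 14.1, 18.0 and 16.1 CPM in silenced libraries, the deepest fall of the group (log2 fold change -0.59, SE 0.119, edgeR adjusted p = 0.00830). DHCR7, which performs the closing reduction, was at 191, 154 and 154 CPM in control and 119.9, 123 and 125 CPM in silenced libraries. Control replicate 1 was well above the other controls, and the 3 silenced libraries were close together (log2 fold change -0.44, SE 0.0910, edgeR adjusted p = 0.00906). Without control replicate 1 the log2 fold change of DHCR7 was -0.33 and still passed. Without silenced replicate 1, 3 of the 11 sterol enzymes were lower, where 3.80% of all genes were.

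SQLE, squalene epoxidase, often taken as a rate-limiting step of the route, was at 51.9, 43.0 and 37.6 CPM in control and 32.0, 39.2 and 35.0 CPM in silenced libraries, which overlapped (log2 fold change -0.31, edgeR adjusted p = 0.104). HSD17B7, a sterol ketone reductase, did not overlap between groups but did not pass (log2 fold change -0.29, edgeR adjusted p = 0.108). LSS, which closes the ring, had -0.11 (interval -0.29 to 0.08), MSMO1, the methyl oxidase, had -0.17 (interval -0.44 to 0.10) and TM7SF2, a sterol reductase, had -0.02 (interval -0.34 to 0.31) on the log2 scale. TM7SF2 was at 8.01 ± 0.566 CPM in the controls, and its 74 counts in 1 library were the lowest single count of any member.

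**Figure D2:**
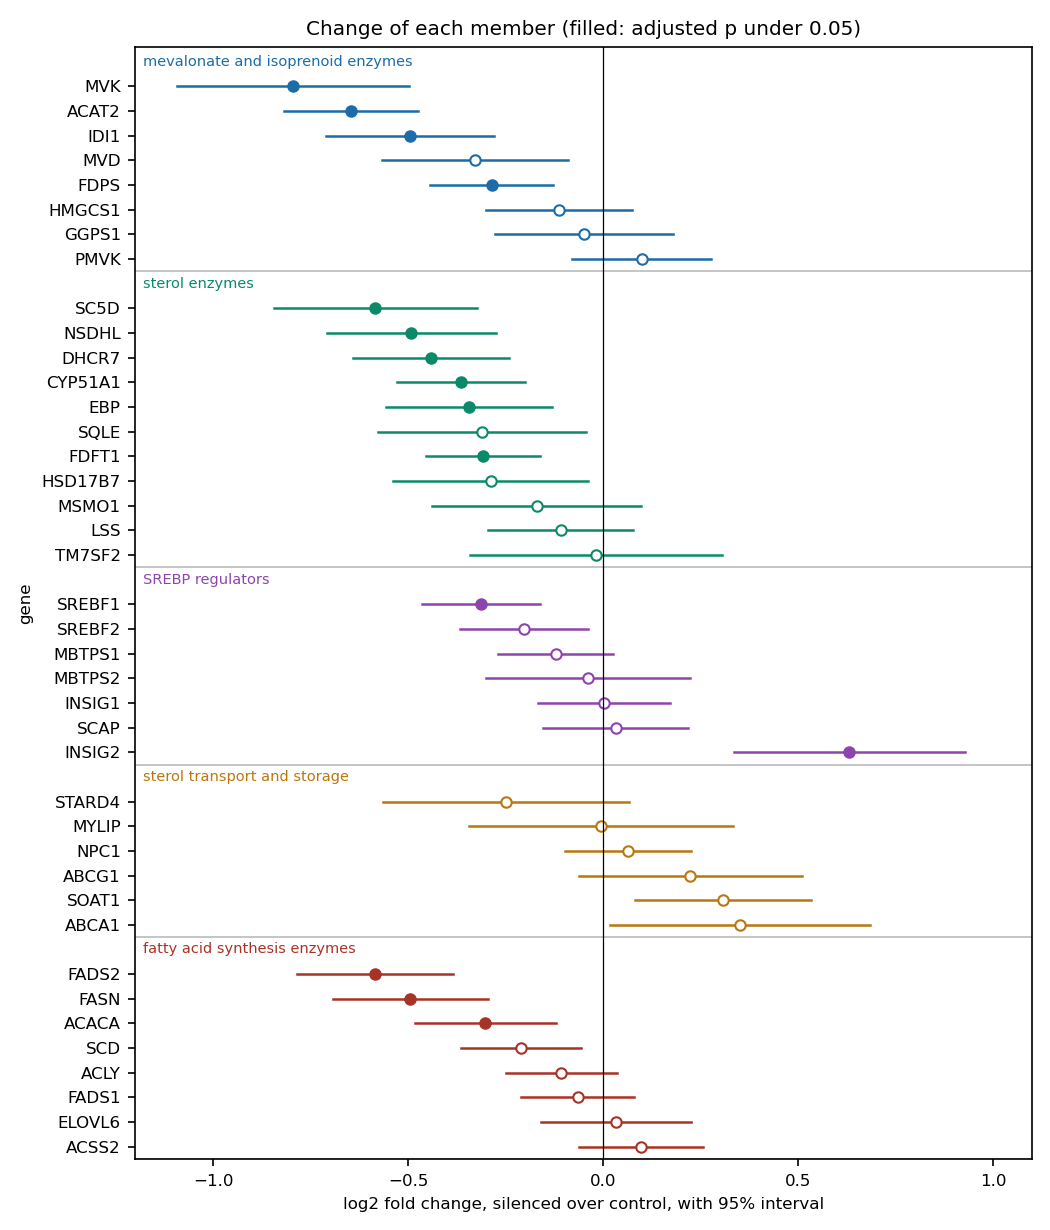
Log2 fold change of each member, silenced over control (x axis), with genes grouped by role and ordered by size within a group (y axis). Lines give the 95% interval derived from edgeR's F statistic. Filled symbols have an adjusted p under 0.05; the filled symbols lie between -0.80 and -0.29 apart from INSIG2 at 0.63.

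Of the 7 SREBP regulators 1 was lower and 1 higher (14.3% each, beside 8.27% and 8.75% of all tested genes). Their median log2 fold change was -0.04. SREBF1, which encodes the SREBP that chiefly drives fatty acid synthesis, was at 171, 156 and 161 CPM in control and 131, 131 and 130.5 CPM in silenced libraries. The silenced libraries were almost equal and all lay under the controls (log2 fold change -0.31, SE 0.0687, edgeR adjusted p = 0.0116). Its call was lost without silenced replicate 1 (adjusted p = 0.0572; 0.00162 at the lowest over the alternatives). SREBF2, which encodes the SREBP that chiefly drives cholesterol synthesis, had the highest level per kilobase of the regulators, 34.5 CPM per kilobase. SREBF2 was at 267, 239.8 and 276 CPM in control and 231, 232 and 217 CPM in silenced libraries. The groups did not overlap, but control replicate 2 was close to the silenced libraries and the test was not passed (log2 fold change -0.20, SE 0.0744, edgeR adjusted p = 0.0846).

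The retention proteins INSIG1 and INSIG2 are given side by side. INSIG1 is itself a target of the SREBPs, and its level was 61.3, 59.5 and 62.3 CPM in control and 65.9, 58.2 and 59.4 CPM in silenced libraries, which overlapped (log2 fold change 0.00, edgeR adjusted p = 0.984, interval -0.17 to 0.17), and its sign turned with RLE scaling. INSIG2, which has the same role but is regulated separately, was the one member that rose, from 10.7, 13.3 and 10.9 CPM to 19.3, 15.5 and 19.1 CPM. Silenced replicate 2 was the lowest of its group and above every control, and the mean reached 155% of control (log2 fold change 0.63, SE 0.135, edgeR adjusted p = 0.0103). INSIG2 passed without any 1 library, and the difference between the changes of INSIG1 and INSIG2 was not tested. SCAP had a log2 fold change of 0.03 (interval -0.15 to 0.22). The proteases that release the SREBPs, MBTPS1 and MBTPS2, had -0.12 (interval -0.27 to 0.03) and -0.04 (interval -0.30 to 0.22), and neither passed.

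Of the 6 genes of sterol transport and storage, 0 were called in either direction in edgeR, and their median log2 fold change was 0.14. DESeq2 called 1 higher, and at an unadjusted edgeR p under 0.05 there were 2 higher and 0 lower. NPC1, which exports cholesterol from lysosomes, had the highest level per kilobase here, 15.6 CPM per kilobase. NPC1 was at 149, 159 and 167 CPM in control and 163, 159 and 173 CPM in silenced libraries, and the groups overlapped (log2 fold change 0.06, SE 0.0737, edgeR adjusted p = 0.598). ABCA1, the cholesterol exporter to lipoproteins, was at 10.4, 7.93 and 11.2 CPM in control and 12.1, 11.9 and 13.7 CPM in silenced libraries, without overlap but with few counts (log2 fold change 0.35, edgeR adjusted p = 0.136). SOAT1, which esterifies cholesterol for storage, was at 71.9, 71.3 and 67.1 CPM and 82.3, 101 and 76.3 CPM, with silenced replicate 2 far above the other libraries (log2 fold change 0.31, edgeR adjusted p = 0.0631). SOAT1 passed in DESeq2, and in edgeR with every gene of at least 1 count tested, with a replicate block, or without silenced replicate 3. ABCG1, the partner exporter, had 0.22 (interval -0.06 to 0.51) and STARD4, a carrier of sterol between membranes, had -0.25 (interval -0.56 to 0.07). MYLIP, a ubiquitin ligase for lipoprotein receptors, had -0.01 (interval -0.34 to 0.33).

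The fatty acid synthesis enzymes had 3 of 8 genes lower and 0 higher in edgeR (4 and 0 both in DESeq2 and at an unadjusted edgeR p under 0.05), with a median log2 fold change of -0.16. FASN, fatty acid synthase, was among the most abundant members at 1125, 911 and 1163 CPM in control and 774, 743 and 752 CPM in silenced libraries. Control replicate 2 was the lowest control and still above the silenced libraries, which were close together, and the mean went from 1066 ± 135 to 756 ± 16.0 CPM (log2 fold change -0.50, SE 0.0905, edgeR adjusted p = 0.00497). FADS2, a desaturase of polyunsaturated fatty acids, was at 61.5, 53.9 and 58.8 CPM in control and 37.9, 42.6 and 35.5 CPM in silenced libraries, with a clear gap between groups (log2 fold change -0.59, SE 0.0911, edgeR adjusted p = 0.00214). ACACA, acetyl-CoA carboxylase, makes the malonyl-CoA that FASN uses and was at 263, 283 and 318 CPM in control and 227, 248 and 226 CPM in silenced libraries. Control replicate 3 was the highest and control replicate 1 lay nearest to the silenced libraries (log2 fold change -0.30, SE 0.0825, edgeR adjusted p = 0.0297). The ACACA call was lost without control replicate 2, control replicate 3, silenced replicate 1 or silenced replicate 3, with log2 fold changes from -0.36 to -0.23 and adjusted p up to 0.118.

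SCD, stearoyl-CoA desaturase, had the highest level per kilobase of all members, 138 CPM per kilobase, and ranked at 259 of 13269 genes with a length. SCD was at 711, 709 and 793 CPM in control and 642, 643 and 627 CPM in silenced libraries. The groups did not overlap, and control replicate 3 was the highest, but the test was not passed in edgeR (log2 fold change -0.21, SE 0.0698, edgeR adjusted p = 0.0601). DESeq2 called SCD lower, as did edgeR with a replicate block. ACLY, which supplies cytosolic acetyl-CoA from citrate, had -0.11 (interval -0.25 to 0.04) and ACSS2, which makes it from acetate, had 0.10 (interval -0.06 to 0.26). ELOVL6, an elongase, had 0.03 (interval -0.16 to 0.23). FADS1, the desaturase next to FADS2 on chromosome 11 and on the other strand, had -0.07 (interval -0.21 to 0.08). The gene models of FADS1 and FADS2 share 490 exon bases on opposite strands, FADS2 was called and FADS1 was not, and the difference between these neighbours was not tested.

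**Figure D3:**
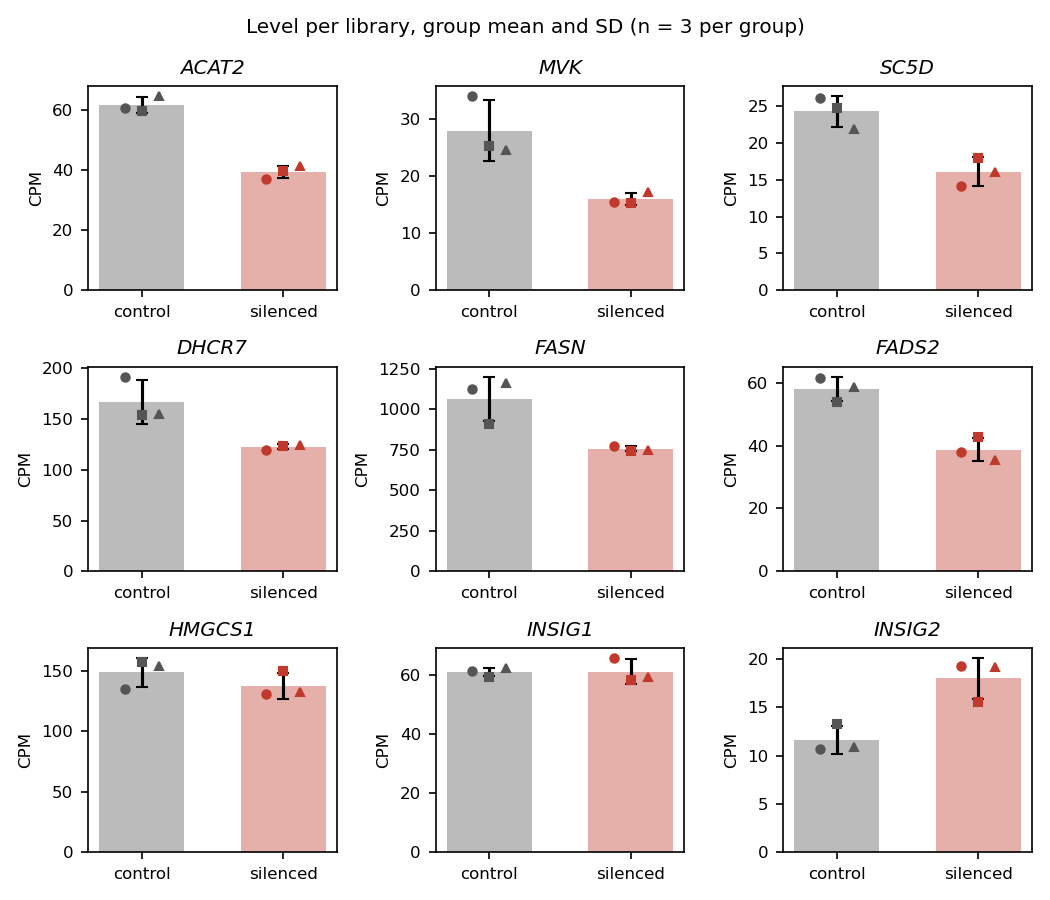
CPM of 9 members in each library (points, 3 per group), with the group mean (bars, from 0) and SD (error bars). ACAT2, MVK, SC5D, DHCR7, FASN and FADS2 have every silenced point under every control point, HMGCS1 and INSIG1 overlap, and INSIG2 has every silenced point above.

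Of the 15 called members, 9 passed without any 1 library, namely ACAT2, MVK, IDI1, NSDHL, SC5D, DHCR7, INSIG2, FASN and FADS2. In 0 of the 15 did leaving out a library or changing the scaling, the filter or the tool turn the direction. The other 6 had log2 fold changes between -0.36 and -0.29 with all libraries, the smallest among the called members.

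**Figure D4:**
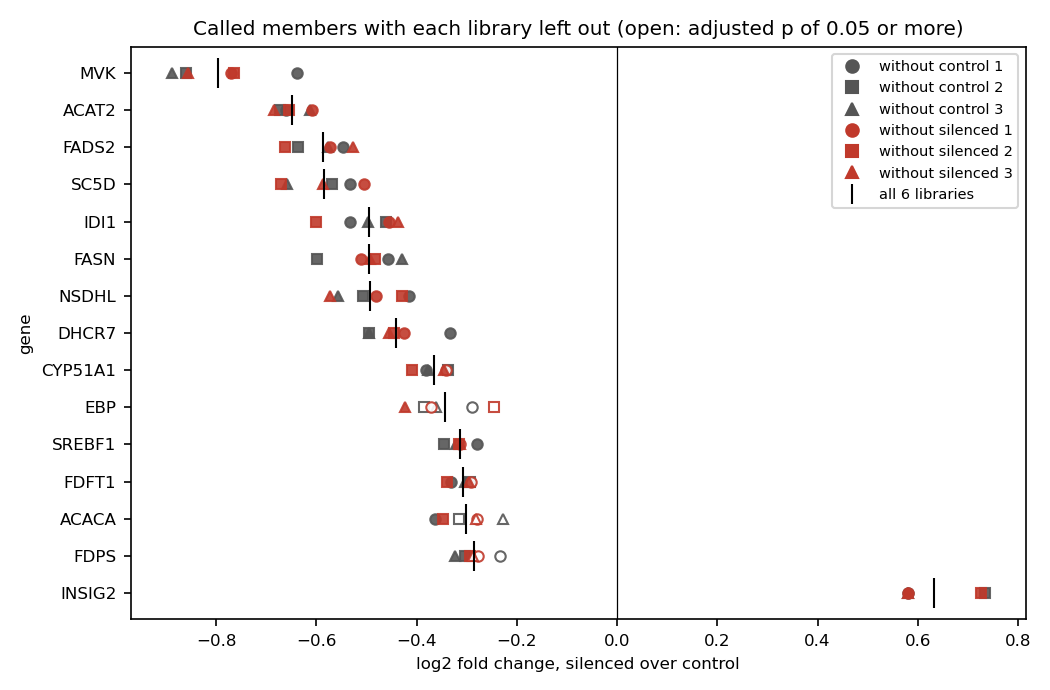
Log2 fold change (x axis) of the 15 called members (y axis) with all 6 libraries (black tick) and with each library left out (symbols), where open symbols have an adjusted p of 0.05 or more. The open symbols are confined to CYP51A1, EBP, SREBF1, FDFT1, ACACA and FDPS, and every symbol stays on its side of 0.

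Genes around the pathway were counted in 5 further lists. Among 13 users of isoprenoids, which attach farnesyl or geranylgeranyl groups to proteins or build dolichol and ubiquinone, 2 fell and 0 rose in edgeR (1 and 0 in DESeq2, 2 and 1 at an unadjusted p under 0.05), with a median log2 fold change of -0.12. They were ICMT, which methylates prenylated proteins (log2 fold change -0.33, edgeR adjusted p = 0.0181), and RABGGTA, a subunit of the Rab geranylgeranyl transferase (log2 fold change -0.32, edgeR adjusted p = 0.0390). Leaving out control replicate 1 or silenced replicate 1 ended both calls, and RABGGTA was also lost in DESeq2, with library size only, and without control replicate 3, silenced replicate 2 or silenced replicate 3 (edgeR adjusted p up to 0.0808 for ICMT and 0.118 for RABGGTA, from 0.00120 and 0.0214 over the alternatives). Of 12 genes of sterol sensing and degradation, 1 fell and 0 rose in edgeR and in DESeq2. At an unadjusted p under 0.05 the counts were 2 and 5, without a share over all tested genes to read them against. The called gene was ERLIN2, an endoplasmic reticulum protein in the degradation of sterol-regulated proteins, which went from 26.9 ± 3.29 to 17.4 ± 2.19 CPM (log2 fold change -0.63, SE 0.125, edgeR adjusted p = 0.00711). The median of this list was 0.10, and it held 3 calls without silenced replicate 3 and 2 without control replicate 1.

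Of 12 other sterol transport genes tested, 1 was lower (8.33%) and 2 were higher (16.7%), beside 8.27% and 8.75% of all tested genes. SOAT2 did not pass the filter. LRP8, a lipoprotein receptor, went from 119 ± 5.87 to 89.3 ± 2.72 CPM (log2 fold change -0.42, edgeR adjusted p = 0.00404). NPC2, the lysosomal partner of NPC1, rose from 47.4 ± 0.848 to 61.0 ± 2.44 CPM (log2 fold change 0.36, edgeR adjusted p = 0.00784). NCEH1, a cholesterol ester hydrolase, rose from 34.0 ± 2.13 to 53.8 ± 3.78 CPM (log2 fold change 0.66, edgeR adjusted p = 0.000928).

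In the list of 23 other lipogenic genes, 3 fell, 2 rose and the median log2 fold change was -0.03. MID1IP1, which promotes polymerization of acetyl-CoA carboxylase, fell (log2 fold change -0.48, edgeR adjusted p = 0.00404), as did MCAT, of mitochondrial fatty acid synthesis (log2 fold change -0.45, edgeR adjusted p = 0.0213), and DGAT1, of triglyceride synthesis (log2 fold change -0.42, edgeR adjusted p = 0.0153). The acyl-CoA synthetases ACSL4 (log2 fold change 0.51, edgeR adjusted p = 0.00715) and ACSL5 (log2 fold change 0.70, edgeR adjusted p = 0.00426) rose. Without silenced replicate 1, this list held 3 calls, and MCAT and DGAT1 were lost (edgeR adjusted p = 0.0786 and 0.0542, from 0.00250 and 0.000737 over the alternatives). MCAT was also lost without control replicate 1 or silenced replicate 2, and DGAT1 without control replicate 3. Of 20 genes of fatty acid oxidation, 3 rose and 1 fell, with a median of 0.04. ACADVL (log2 fold change 0.35, edgeR adjusted p = 0.0143) and HADHB (log2 fold change 0.38, edgeR adjusted p = 0.0145) of the mitochondrial spiral and the receptor PPARA (log2 fold change 0.27, edgeR adjusted p = 0.0361) rose, and ECI1 (log2 fold change -0.35, edgeR adjusted p = 0.0124) fell. Without silenced replicate 1, 2 calls were left, since ACADVL and PPARA were lost (edgeR adjusted p = 0.0767 and 0.121, from 0.000616 and 0.0277 over the alternatives). PPARA was also lost in DESeq2, which called 2 of this list higher, with every gene of at least 1 count tested, and without control replicate 2, control replicate 3, silenced replicate 2 or silenced replicate 3. The 5 lists thus held shares of lower genes from 5% to 15.4%, beside 35% among the members and 8.27% of all tested genes. Their shares of higher genes ran from 0% to 16.7%, beside 8.75% of all tested genes.

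**Figure D5:**
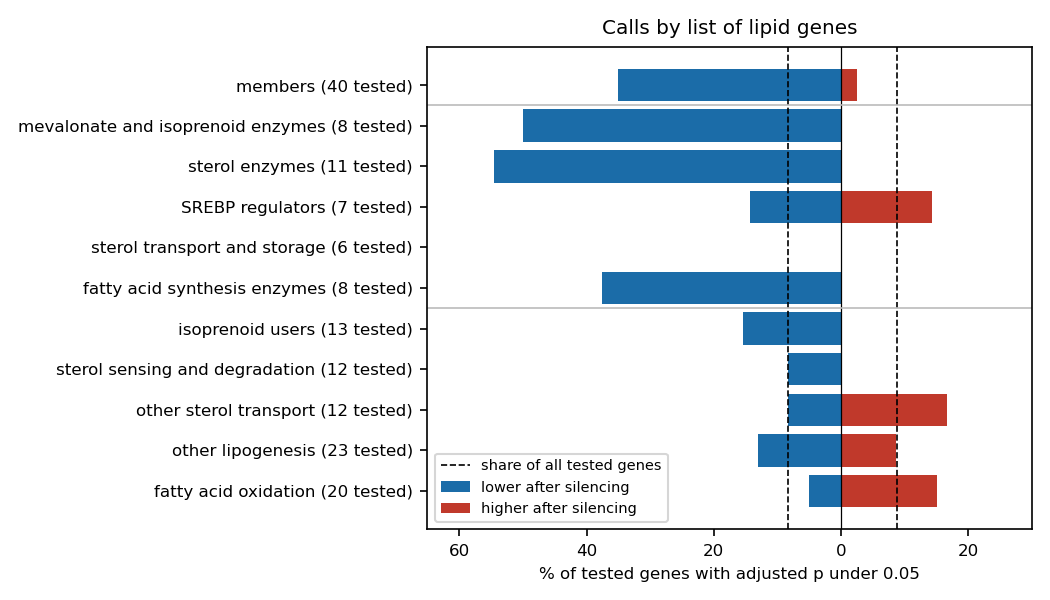
Share of tested genes (x axis, %) that were lower (blue, to the left) or higher (red, to the right) after silencing at an adjusted p under 0.05, for the members, their 5 role groups and 5 other lists (y axis). Dashed lines give the share over all tested genes, 8.27% lower and 8.75% higher; the blue bars of the enzyme groups reach 37.5% to 54.5%.

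The 3′-UTRs of the members were searched for CCAATAA, a word that earlier work picked from these same libraries, so that its direction here is no independent evidence. It was held by 3 of the 40 members (7.5%), against 12.7% of tested mRNAs, and by 0 of the 14 members that fell. With so few members holding the word, these counts are too small to be read either way. The 3 were MBTPS2, STARD4 and ABCA1, shown with the word in capitals to make plain which members carry it.
MBTPS2: aactaattCCAATAAtcaaatac
STARD4: atatacctCCAATAAgtaattac
ABCA1: gcatatttCCAATAActagtgat
None of them was called, and over all tested mRNAs the median log2 fold change was -0.08 with the word (1471 genes) and 0.01 without it (10085 genes).

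The libraries carried the keratins of the labelled epithelial line, and CD3E and SFTPA1 were at 0 in all 6. The summed level of 6 epithelial markers was 4419 to 4718 CPM in control and 3525 to 3567 CPM in silenced libraries, with KRT7 (log2 fold change -0.57, edgeR adjusted p = 0.00116) and KRT18 (log2 fold change -0.43, edgeR adjusted p = 0.00266) lower. KRT8 did not pass (log2 fold change -0.20, edgeR adjusted p = 0.121). CDH1 was at 0.821, 0.690 and 0.826 CPM in control and 1.07, 1.66 and 1.41 CPM in silenced libraries, higher without overlap but not past the test (log2 fold change 0.82, edgeR adjusted p = 0.112), while EPCAM was at 2.82 to 4.48 CPM and KRT19 at 0.487 to 1.21 CPM over both groups. Of 6 alveolar type II markers, SFTPB was at 0 to 0.103 CPM and SFTPC at 0.205 to 0.738 CPM, and the list's sum, 203 to 245 CPM in control and 162 to 172 CPM in silenced libraries, came from ABCA3, a lipid transporter (log2 fold change -0.44, edgeR adjusted p = 0.00511). Among 4 leukocyte markers, PTPRC was at or near 0 and CD68, also a lysosomal protein of other cells, rose (log2 fold change 0.88, edgeR adjusted p = 9.93e-05), which took the sum from 124 to 142 CPM up to 225 to 255 CPM. The fibroblast sum was 26.0 to 29.6 CPM in control and 28.6 to 37.7 CPM in silenced libraries, nearly all of it COL1A1, and the endothelial sum was 4.41 to 6.37 and 3.78 to 4.15 CPM. The part of these shifts in the changes of the lipid genes was not tested.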

How the data were processed

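Total RNA of A549 cells was sequenced in 3 control and 3 silenced libraries. The authors deposited raw read counts per gene, made by mapping with MapSplice; the build was GRCh37 per the submitters' processing notes, and strand and multi-mapped reads are not given in the sources used here. Groups were taken from the treatment labels, and 0 sample columns were left unused. Counts were fitted with edgeR 4.0.16 (R 4.3.3; TMM factors 0.955 to 1.02, filterByExpr, glmQLFit and glmQLFTest), with Benjamini-Hochberg adjustment over 15250 genes. The pipeline was tested on simulated data. Replicates differed beyond counting noise (chi-square per degree of freedom 3.92 to 26.8), so none was a copy of another. Levels between genes were compared per kilobase of merged GENCODE 29 exons. Promoters came from RefSeq GRCh38.p14, matched by symbol, with the first entry kept per symbol. HACD3 was found in the count table under its RefSeq synonym PTPLAD1.

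Members and lists were chosen with earlier results of these data known. Every member is named; values per library are given for called members and for the member with the highest level per kilobase in each role, with a few others printed after their values were seen. From the other lists, called genes are named, at most 5 a list. Alternatives were DESeq2 1.42.0, other size factors (RLE), library size only, filters of 1 count in any or 10 counts in every library, a replicate block, leaving out each library, and an adjusted p under 0.01.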

Additional observations from a re-analysis of the deposited data

How the results depend on the processing

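Of the 15 called members, 9 stayed past the threshold under every other tool, scaling and filter, with the block and without any 1 library, and 0 turned; of the 25 not called, 4 (MVD, SQLE, SOAT1 and SCD) passed under some alternative. An adjusted p under 0.01 left 9 members lower and 0 higher, 903 of all genes, 0 SREBP regulators, 0 isoprenoid users, 3 other lipogenic genes and 0 of fatty acid oxidation. Members higher numbered 2, and transport genes called 1, in DESeq2, with every gene of at least 1 count and with the block; isoprenoid users called numbered 1 in DESeq2 and with library size only. Calls in sterol sensing and degradation numbered 3 with library size only, 2 under either count filter and 4 with the block, which also gave 6 in other sterol transport. Library size alone moved the members' median from -0.19 to -0.15 and that of all genes from -0.00067 to 0.035. With one library left out, lower members ranged from 8 to 14, higher from 1 to 2, all genes called from 1225 to 1962, sterol enzymes from 3 to 6, SREBP regulators from 1 to 2, transport genes from 0 to 1, isoprenoid users from 0 to 2, sterol sensing from 1 to 3, other lipogenesis from 3 to 6, fatty acid oxidation from 2 to 4, and the median from -0.22 to -0.15. Signs turned only among members near 0: TM7SF2 (0.018) and MYLIP (0.032) with library size only, INSIG1 in DESeq2 (-0.0011), with RLE factors (-0.00087) and with every gene of at least 1 count (-0.0062), and with one library left out GGPS1 (-0.14 to 0.012), TM7SF2 (-0.062 to 0.040), SCAP (-0.047 to 0.10), INSIG1 (-0.052 to 0.036), MBTPS2 (-0.14 to 0.058), MYLIP (-0.095 to 0.063) and ELOVL6 (-0.031 to 0.066). The cause was not tested. The replicate numbers share no stated source: deviations from the group means correlated at 0.067 to 0.149 for equal numbers and -0.112 to 0.0182 for others, each library best with its own number, a hint from the data and not the design. With the replicate block 16 members were lower, 2 higher and 3449 genes were called. With 3 libraries per group and standard errors of 0.0652 to 0.154 for members, smaller differences may be missed, and TM7SF2, MYLIP and ABCA1 have the lowest counts in a library, from 74.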
